A study of Mus musculus with 19 samples.

Results

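Rolipram was compared with vehicle in the gastrocnemius, a fast calf muscle, of mice carrying C26 tumours. The comparison used 12 of the 19 libraries of the series, chosen by the labels: the 5 numbered C26 rolipram libraries and the 7 C26 vehicle libraries. It covered 11141 of the 13067 genes in the table, those with at least 1 RPKM (reads per kilobase of gene per mega reads) in at least 5 of all 19 libraries.

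Both groups came from male Balb/c mice, aged 2 months when C26 cells were placed under the skin of the right flank. C26 cells, a mouse colon carcinoma line, form tumours that waste muscle and fat. From day 4 the mice received intraperitoneal rolipram at 3 mg/kg, or the vehicle, ethanol in saline. The strain, tumour, sex and injections were therefore shared, and the drug was the labelled difference. The other 7 libraries came from healthy controls without a tumour. Their levels are given as a reference, and the labels do not state their age, sex or whether vehicle was injected. The day of muscle collection is not stated. The labels do not say that each numbered sample was a separate animal, so the p-values reflect only the spread between the samples, which may be technical.

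Rolipram inhibits phosphodiesterase 4 (PDE4), the enzyme family that breaks down cyclic AMP. In muscle, cyclic AMP is made by adenylyl cyclases downstream of G-protein-coupled receptors such as the beta-adrenergic receptor, and it activates protein kinase A, which phosphorylates the transcription factor CREB1 and, through the SIK kinases and CRTC coactivators, controls CREB target genes. In cachexia, fibres raise the ubiquitin ligases MuRF1 (Trim63) and atrogin-1 (Fbxo32), proteasome and autophagy genes, and lose mitochondrial transcripts.

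The recovered library sizes ran from 16.57 to 38.55 M (mega) reads with rolipram, from 20.05 to 45.51 M with vehicle and from 18.11 to 22.52 M in controls. The typical SD of a gene over the libraries of a group was 0.20 on the log2 scale with rolipram, 0.22 with vehicle and 0.15 in controls. The first principal component, with 66.8% of the variance, separated both tumour groups (6.07 to 57.6) from the controls (-50.3 to -42.3), and rolipram (6.07 to 34.8) overlapped vehicle (8.93 to 57.6) on it. The second, with 8.49%, separated all 5 rolipram libraries (-30.8 to -3.83) from the vehicle libraries (1.01 to 27.6). Rolipram library 3 lay closest to vehicle, and vehicle library 3 farthest from rolipram. No 2 libraries held identical values.

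**Figure D1:**
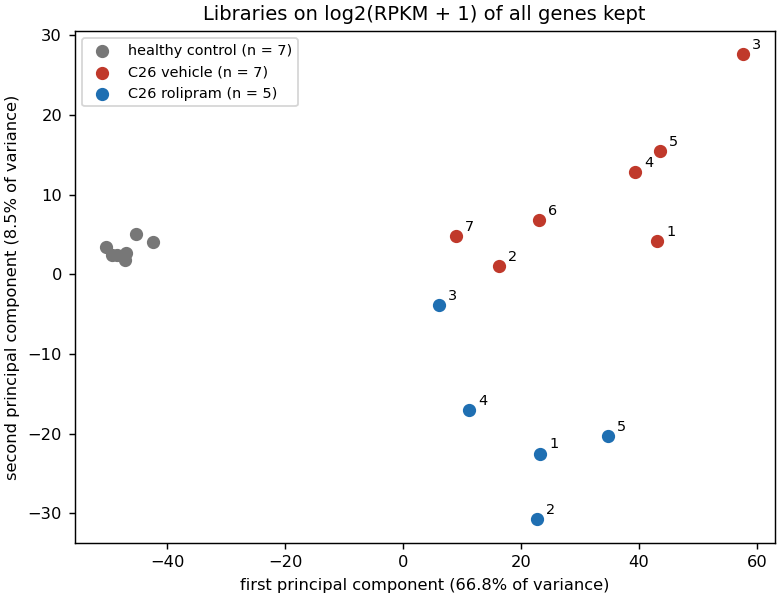
Position of the 19 libraries on the first and second principal components of log2(RPKM + 1), with the share of variance on each axis and 1 point per library, numbered within its group. The 5 rolipram libraries lie below the 7 vehicle libraries on the second component, and rolipram library 3, at -3.83, is nearest to them.

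The tissue label was met by its markers. Summed over 10 muscle fibre markers, the level was 42170 to 67339 RPKM with rolipram, 39855 to 64434 RPKM with vehicle and 63375 to 79826 RPKM in controls. Desmin (Des), the intermediate filament of the fibre, was the 1 of these 10 that was called, with a log2 difference of 0.45. That is a share of 10%, near the 9.78% of all genes that were called higher. The call was lost after quantile normalization. Here and below, a log2 difference is the mean log2(RPKM + 1) with rolipram minus that with vehicle, and a gene was called at a Benjamini-Hochberg adjusted p below 0.05 from limma over all 11141 genes.

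Rolipram was accompanied by a broad change of modest size. Of 11141 genes, 1090 (9.78%) were higher and 816 (7.32%) lower, 17.1% together, with a median called difference of 0.46 for rises and -0.48 for falls. At least 2-fold differences were reached by 58 rises (0.521%) and 49 falls (0.44%). The 5 rolipram libraries lay wholly above the 7 vehicle libraries for 253 genes (2.27%) and wholly below for 201 (1.8%), and 432 of these 454 genes (4.08%) were called. The median difference over all genes was -0.01. Fitted on the 12 tumour libraries alone, the counts were 467 and 300. They were 665 and 523 without rolipram library 1, and 679 and 435 without rolipram library 2, and without rolipram library 4 the falls numbered 521.

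**Figure D2:**
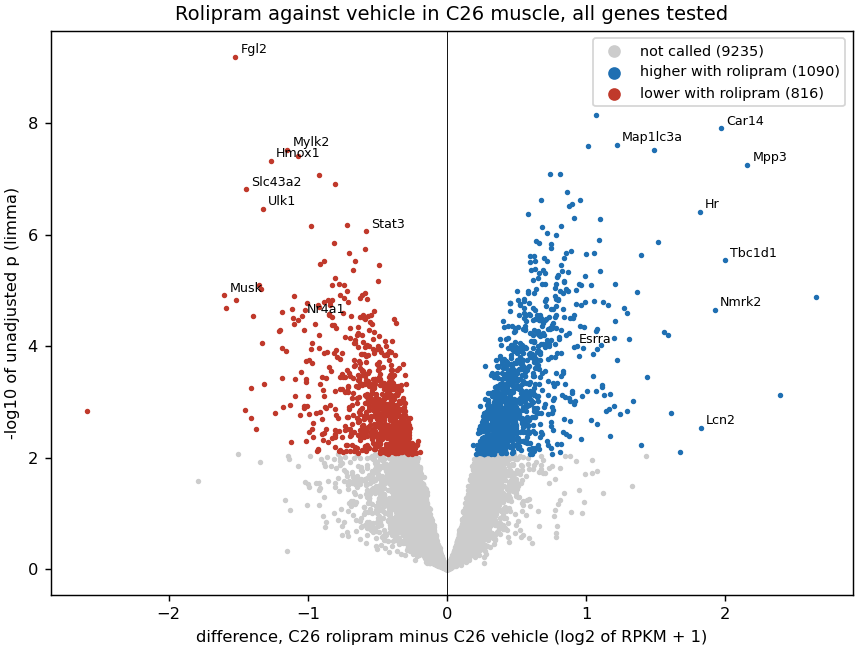
Each point is 1 of 11141 genes, with the log2 difference between C26 rolipram and C26 vehicle on the x axis and the −log10 of the unadjusted limma p on the y axis, and called genes in colour. The rises (1090) outnumber the falls (816), and most lie within 1 log2 unit of 0.

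The gene with the smallest p was Fgl2, which encodes a fibrinogen-like protein with coagulant and immune roles. It measured 4.23, 3.89, 6.59, 4.82 and 4.12 RPKM in rolipram libraries 1 to 5, and 10.4, 15.5 and 19.97 RPKM (lowest, median and highest) with vehicle. No rolipram library reached the vehicle range, and all 5 lay above the controls' highest value of 3.64 RPKM. Its log2 difference was -1.52 (SE 0.14, adjusted p = 7.15e-06).

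The 12 largest rises without overlap between the groups ran from 1.20 to 2.16 on the log2 scale. Mpp3, a membrane scaffold protein, had the largest at 2.16 (SE 0.26), from 0.945 ± 0.467 RPKM with vehicle (SD, n = 7) to 8.89 ± 5.9 with rolipram (SD, n = 5). Car14, a membrane-bound carbonic anhydrase, measured 36.2, 30.6, 19.5, 33.4 and 51.2 RPKM in rolipram libraries 1 to 5. With vehicle its lowest, median and highest values were 4.2, 8.86 and 12 RPKM. The lowest rolipram value, in library 3, was still above the highest vehicle value, and the controls (22.5 to 34.4 RPKM) lay within the rolipram range. The difference was 1.97 (SE 0.22, adjusted p = 4.53e-05).

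Tbc1d1, a Rab GTPase-activating protein that governs the traffic of the glucose transporter GLUT4, rose by 2.00 to 25.8, 20.8, 16.6, 27.7 and 48.7 RPKM. All 5 values exceeded the vehicle maximum of 13 RPKM and also the control maximum of 16.2 RPKM. Slc16a3, the lactate exporter MCT4, rose by 1.37. Nmrk2, a nicotinamide riboside kinase of NAD synthesis, rose by 1.92, but its mean of 14.1 RPKM remained far below the control mean of 149 RPKM. Ppif, cyclophilin D of the mitochondrial permeability transition pore, rose by 1.27. Hr, a nuclear receptor corepressor, rose by 1.82, to 46.8, 47.9, 32.6, 44.6 and 49.8 RPKM against a control range of 9.72 to 25.6 RPKM, so that every rolipram library was above every control and every vehicle library. The remaining rises named were Sobp (1.49), Aimp2, a scaffold of the tRNA synthetase complex (1.40), and Ccn1, a matricellular protein (1.20), with Perm1 and Map1lc3a described below. Of the Aimp2 exon bases, 29.4% overlap a gene on the other strand, and no source used here gives the strand setting of the counting.

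The 12 largest falls without overlap ran from -1.60 to -1.09. Musk, the muscle-specific kinase that organises the neuromuscular junction, measured 5.88, 3.96, 7.58, 4.08 and 3.13 RPKM with rolipram in libraries 1 to 5. Vehicle libraries ran from 9.01 to 34.5 RPKM with a median of 12.9 RPKM. The groups did not overlap, and the difference was -1.60 (SE 0.28, adjusted p = 0.00128). Slc43a2, a transporter of large neutral amino acids, fell to between 6.54 and 11.7 RPKM from a vehicle range of 14.9 to 41.5 RPKM, a difference of -1.45 (SE 0.19). Its relative Slc43a1 also fell (log2 difference -1.09), as did Zfp36, which encodes the mRNA decay factor tristetraprolin (-1.35), Tbc1d15, a Rab GTPase-activating protein (-1.10), Ranbp9 (-1.31) and Snhg1 (-1.45). The calls of Ranbp9 and Snhg1 were lost on the 12 tumour libraries alone. Fgl2, Mylk2, Ulk1, Hmox1 and Saa2 make up the rest of the 12.

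**Figure D3:**
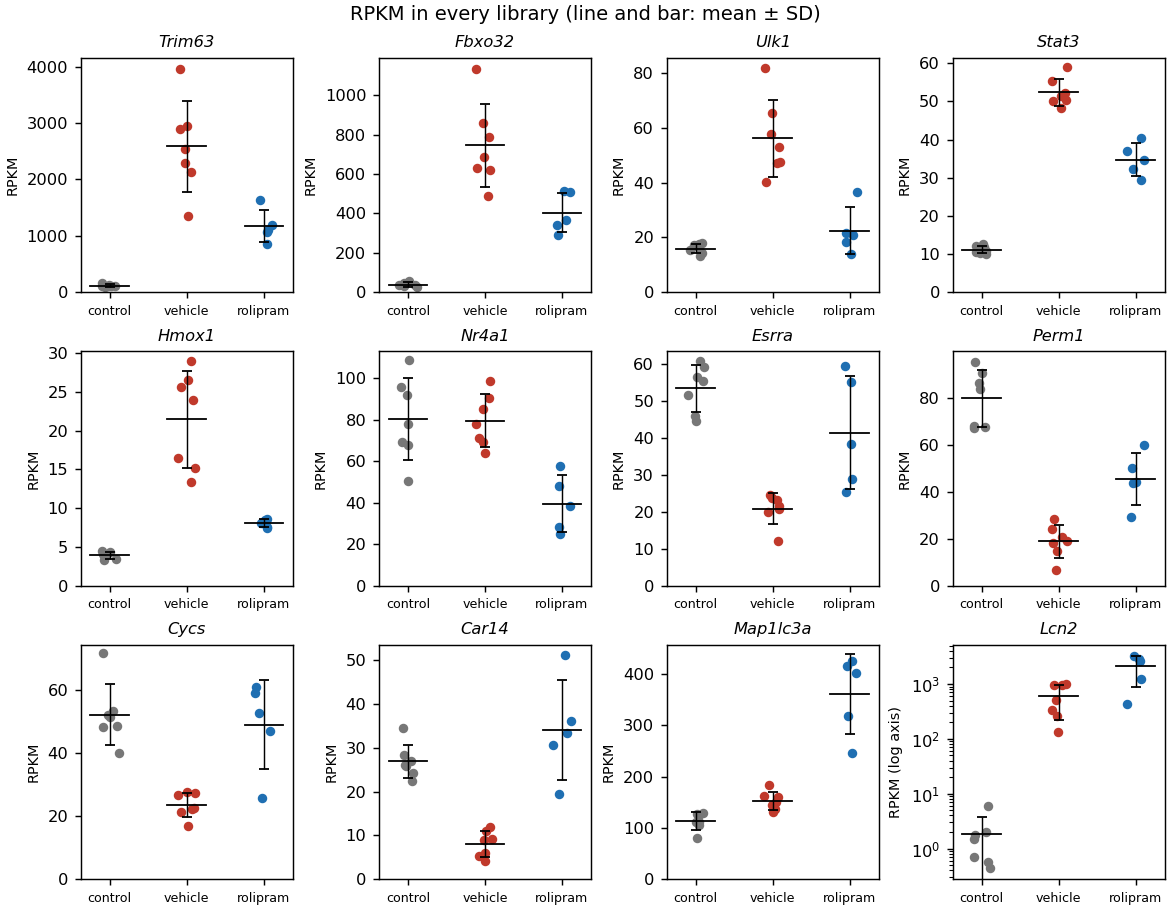
RPKM of 12 genes in every library of the controls, C26 vehicle and C26 rolipram, with 1 point per library, a line at the group mean and a bar of 1 SD each way, on linear axes from 0 and, for Lcn2, a log axis. The 5 rolipram points of Nr4a1, Stat3, Ulk1 and Hmox1 lie below all 7 vehicle points, and those of Map1lc3a and Esrra lie above them.

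None of the 4 PDE4 genes, whose products rolipram inhibits, was called. Pde4a measured 2.45, 1.76, 3.13, 4.39 and 0.972 RPKM in rolipram libraries 1 to 5, and 0.289, 0.847 and 2.78 RPKM (lowest, median, highest) with vehicle. Its groups overlapped, with a difference of 0.68 (95% interval 0.19 to 1.16, adjusted p = 0.0525 in limma) against a control mean of 13.9 RPKM. Pde4a was called under 4 other settings and without vehicle library 2 or 7 or rolipram library 5. Pde4b ranged from 11.6 to 25.1 RPKM with rolipram and from 10.5 to 45.7 RPKM with vehicle (difference -0.50, 95% interval -1.07 to 0.07). Pde4d ranged from 16.2 to 29.9 RPKM with rolipram and from 18.3 to 60.6 RPKM with vehicle (difference -0.55, 95% interval -1.04 to -0.06). It was called lower with a replicate block (adjusted p = 0.0483 in limma) and without vehicle library 7 (adjusted p = 0.0319). The interval for Pde4c was -0.38 to 0.08. These intervals are for single genes and are not adjusted over all genes. Of the 8 phosphodiesterase genes tested, against 9.78% of all genes higher and 7.32% lower, Pde7a fell by 0.46 and Pde8a, which like Pde7a hydrolyses cyclic AMP, rose by 0.38. The Pde8a call was lost on the 12 tumour libraries alone and without vehicle library 1, 2, 3, 4 or 5 or rolipram library 1, 2, 4 or 5 (adjusted p up to 0.109 in limma).

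In the pathway upstream of CREB, 5 of 33 cyclic AMP receptor, cyclase and protein kinase A genes rose and 2 fell (15.2% and 6.06%, against 9.78% and 7.32% of all genes), with a list median of -0.03. The rises were Gnas, the stimulatory G protein subunit (0.26), Prkar2a, a regulatory subunit of the kinase (0.38), Pkig, which encodes an inhibitor of the kinase (0.57), and the cyclic AMP-binding Popeye proteins Bves (0.58) and Popdc2 (0.50). The falls were the cyclase Adcy9 (-0.67) and the inhibitory G protein subunit Gnai3 (-0.29). The rises were 3 on the 12 tumour libraries or without rolipram library 5. The Gnai3 call was lost on the 12 tumour libraries, with array quality weights or a replicate block, and without vehicle library 3, 5 or 7 or rolipram library 1, 2, 3 or 4. The catalytic subunit Prkaca was not called, with a difference of 0.36 and an adjusted p of 0.0521 in limma. It was called higher with the filter at 5 RPKM, array quality weights or a replicate block, and without vehicle library 2, 6 or 7, with adjusted p down to 0.00773 in limma.

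Creb1 measured 2.32, 1.54, 1.76, 2.24 and 2.46 RPKM with rolipram and 1.78, 2.03 and 2.78 RPKM (lowest, median, highest) with vehicle. The groups overlapped and the 95% interval of the log2 difference was -0.29 to 0.17. Crem, which encodes a related factor, ranged from 1.15 to 2.53 RPKM with rolipram and was not called (difference 0.21, adjusted p = 0.218 in limma). Among 11 genes of CREB factors and their regulators, 2 fell (18.2%, against 7.32% of all genes) and none rose. Crtc2, a CREB coactivator, fell (-0.46), and so did Sik1, the kinase that holds CRTC proteins in the cytoplasm. The 2 falls were 1 on the 12 tumour libraries or without rolipram library 2.

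None of 28 CREB target genes was higher with rolipram, and 4 were lower (14.3%, against 7.32% of all genes), with a list median of -0.46. These were Nr4a1, Sik1, the insulin receptor substrate Irs2 (-0.99) and the phosphatidate phosphatase Lpin1 (-0.48). Nr4a1, an immediate-early nuclear receptor, measured 25.1, 38.6, 57.6, 48.2 and 28 RPKM in rolipram libraries 1 to 5. Its lowest, median and highest vehicle values were 63.7, 78.1 and 98.9 RPKM. Every rolipram value was below every vehicle value, and the controls, at 50.5, 77.9 and 109 RPKM, ranged with the vehicle libraries. The Nr4a1 difference was -1.04 (SE 0.20, adjusted p = 0.00183), and the exact two-sided permutation p over 792 assignments was 0.00126, the smallest it can give (0.00758 adjusted over 18 genes).

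Sik1 measured 8.21, 6.2, 7.5, 7.46 and 9.73 RPKM with rolipram and 7.95, 19.4 and 66.9 RPKM with vehicle. Vehicle library 3 was the highest, 3 rolipram values lay below all vehicle values, and the difference was -1.24 (SE 0.34, adjusted p = 0.0176). The Sik1 call was lost on the 12 tumour libraries alone and without rolipram library 2 (adjusted p up to 0.0523 in limma), and that of Irs2 on the 12 tumour libraries and without vehicle library 3 or 6 or rolipram library 1 or 2 (adjusted p up to 0.1 in limma). Nr4a3, a relative of Nr4a1, missed the threshold with -1.13 (adjusted p = 0.0574 in limma). It was called lower with a pseudocount of 5, array quality weights (-1.71, adjusted p = 0.0052 in limma) or a replicate block, and without vehicle library 2 or 7 or rolipram library 5. The 4 falls of the list became 1 on the 12 tumour libraries, 2 without vehicle library 3 or rolipram library 1, 1 without rolipram library 2, and 8 without vehicle library 7.

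The promoters of 4 genes are printed to show the letters that CREB and estrogen-related receptors are known to bind, in genes that fell (Nr4a1, Errfi1) and rose (Cycs, Sdhd); the 4 were chosen after their values were seen. The sequences are from RefSeq on GRCm38.p6, the bases upstream of a RefSeq transcript start and the first bases after it, 5′ to 3′ on the gene's strand. Capitals mark the full cyclic AMP response element (CRE), TGACGTCA, in Errfi1 and Cycs, the reverse complement of its shorter core, TGACG, in Nr4a1, and the reverse complement of the estrogen-related receptor element, TCAAGGTCA, in Sdhd. Nr4a1 lies at chr15:101266596-101266895 (plus strand), Errfi1 at chr4:150854820-150855119 (plus), Cycs at chr6:50566520-50566819 (minus) and Sdhd at chr9:50603800-50604099 (minus). The starts used for Nr4a1 and Errfi1 lie inside the genes as GENCODE draws them, downstream of the outermost starts at base 101254269 of chromosome 15 and base 150853919 of chromosome 4. RefSeq lists another Errfi1 promoter next to that outermost start, at chr4:150853546-150853845, which holds none of these motifs and is not printed.
Nr4a1: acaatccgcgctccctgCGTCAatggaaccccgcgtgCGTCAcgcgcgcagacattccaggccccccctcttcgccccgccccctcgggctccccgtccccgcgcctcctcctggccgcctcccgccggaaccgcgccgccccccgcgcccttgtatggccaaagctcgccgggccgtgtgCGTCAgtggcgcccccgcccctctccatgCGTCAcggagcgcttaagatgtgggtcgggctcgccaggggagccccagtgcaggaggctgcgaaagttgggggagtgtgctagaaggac
Errfi1: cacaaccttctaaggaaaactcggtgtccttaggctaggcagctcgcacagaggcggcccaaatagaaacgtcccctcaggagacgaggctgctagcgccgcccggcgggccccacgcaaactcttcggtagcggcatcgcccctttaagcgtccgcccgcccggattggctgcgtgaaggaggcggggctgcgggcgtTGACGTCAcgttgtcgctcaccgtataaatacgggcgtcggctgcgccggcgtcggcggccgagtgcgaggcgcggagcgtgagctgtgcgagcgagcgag
Cycs: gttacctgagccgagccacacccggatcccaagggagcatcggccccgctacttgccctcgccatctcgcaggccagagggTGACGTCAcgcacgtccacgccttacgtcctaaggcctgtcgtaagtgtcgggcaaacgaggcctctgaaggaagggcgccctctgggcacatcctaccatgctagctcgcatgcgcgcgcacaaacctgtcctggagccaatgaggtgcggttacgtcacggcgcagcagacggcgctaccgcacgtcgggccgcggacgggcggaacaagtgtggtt
Sdhd: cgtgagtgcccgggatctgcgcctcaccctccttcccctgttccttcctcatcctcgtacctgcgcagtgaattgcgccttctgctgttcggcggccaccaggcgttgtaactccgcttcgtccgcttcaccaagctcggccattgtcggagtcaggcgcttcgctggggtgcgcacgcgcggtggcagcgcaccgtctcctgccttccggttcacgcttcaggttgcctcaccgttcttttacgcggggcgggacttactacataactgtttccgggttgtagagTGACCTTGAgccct

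In these letters the full CRE began at base -51 relative to the RefSeq start of the printed window in Errfi1 and at base -169 in Cycs, and Nr4a1 held 4 cores. The estrogen-related receptor element of Sdhd began at base 36, after the RefSeq start. GENCODE draws its outermost Sdhd start further downstream, at base 50603812 of chromosome 9, next to where the element begins. Both strands were searched, and the core is contained in the full CRE. A gene with several promoters was counted as holding a motif if any of them did. Of 8568 tested genes with a promoter in the table, 3.69% held the full CRE and 36.5% the core. The full CRE was in 3.29% of promoters of genes that rose and 3.89% of those that fell, and the core in 35.4% and 42.5%. Among the 20 CREB targets with a promoter, 3 held the full CRE and 17 the core, but that list is made of genes known as CREB targets. The estrogen-related receptor element, searched after values were seen, was in 25 of all 8568 promoters (0.292%). It was in 0.353% of those of genes that rose and 0.311% of those of genes that fell, near the share of all genes. A match is a description of the letters and not a bound site.

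Many nuclear genes of oxidative phosphorylation rose with rolipram, and no member was called lower. Of the complex I genes 21 of 36 rose (list median 0.39), of complexes II and III with cytochrome c 8 of 14 (0.48), of complex IV 6 of 15 (0.34) and of ATP synthase 13 of 16 (0.48), against 9.78% of all genes and a median of -0.01. None of the 7 tested genes of the mitochondrial genome was called (median -0.02). On the 12 tumour libraries alone these counts were 11, 4, 2 and 4, and without rolipram library 2 those of complexes II and III, complex IV and ATP synthase were 5, 2 and 7. Without rolipram library 1, complexes II and III had 5 and complex IV had 3.

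Ndufb10, a subunit of complex I, measured 367, 435, 175, 258 and 328 RPKM in rolipram libraries 1 to 5, and 120.4, 172 and 175 RPKM (lowest, median, highest) with vehicle. Rolipram library 3 lay within the vehicle range while the other 4 were above it, and the difference was 0.93 (SE 0.17, adjusted p = 0.00142). Sdhd, the membrane anchor of succinate dehydrogenase, measured 241, 219, 139, 191 and 195 RPKM with rolipram and 78.5, 104 and 134 RPKM with vehicle. All 5 rolipram values were above all 7 vehicle values, with a difference of 0.83 (SE 0.13, adjusted p = 0.000776), and the control median was 245 RPKM. Cycs, which encodes cytochrome c, rose by 0.99, with rolipram library 3 (25.8 RPKM) inside the vehicle range. Cox5a of complex IV rose by 0.70, and the ATP synthase subunits Atp5d and Atp5c1 rose by 0.70 and 0.49. The vehicle-minus-control medians of the 4 lists were -0.74, -0.80, -0.58 and -0.73, and the rolipram-minus-control medians -0.30, -0.31, -0.16 and -0.24. These comparisons share libraries with that of rolipram and vehicle.

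**Figure D4:**
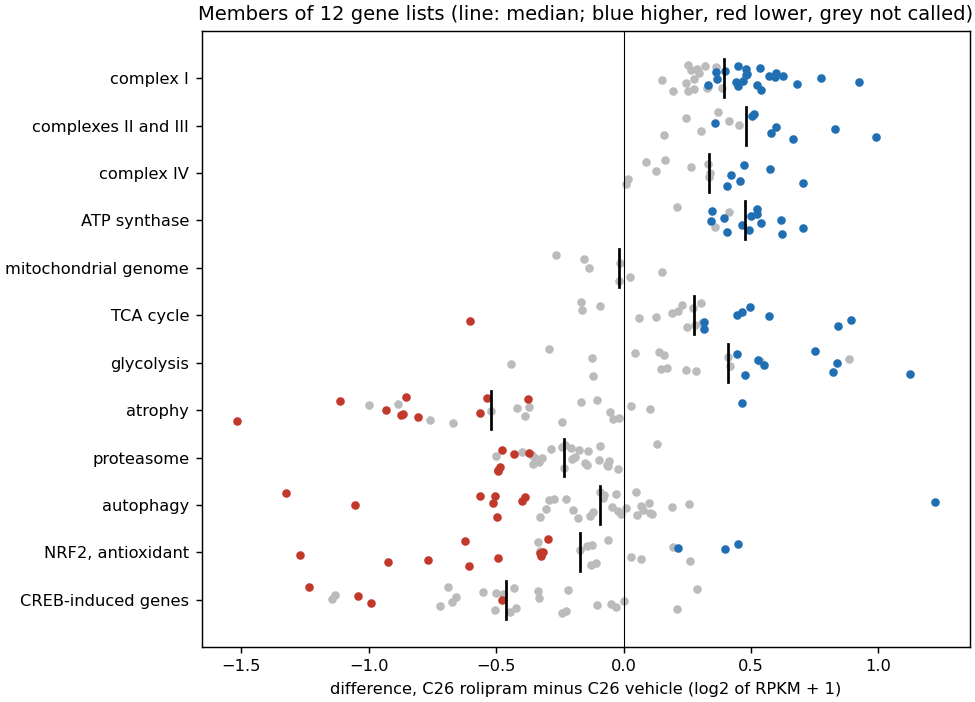
Log2 difference between C26 rolipram and C26 vehicle for each tested member of 12 gene lists, with 1 point per gene, called members in colour and a bar at the list median. All 36 complex I and all 16 ATP synthase genes lie above 0, while 3 of the 27 atrophy genes do.

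The other mitochondrial lists are read against the 9.78% of all genes that rose and the 7.32% that fell. In the mitochondrial ribosome 28 of 76 genes rose and 2 fell (median 0.28), with Mrpl34 (0.86) and Mrpl12 (0.80) at the smallest p and Mrpl9 in the other direction (-0.51). The 2 falls of this list were 0 on the 12 tumour libraries and 1 without vehicle library 4 or 5 or rolipram library 1, 2 or 4. In mitochondrial import and dynamics 9 of 26 rose and none fell (0.25), led by Timm23, a pore of the inner membrane (0.67), and Chchd3, a cristae protein (0.52). In the tricarboxylic acid cycle and pyruvate entry 8 of 22 rose and 1 fell (0.28). Idh3a, the NAD-dependent isocitrate dehydrogenase subunit, measured 204, 188, 141, 173 and 177 RPKM with rolipram, above every vehicle value (63.3 to 128 RPKM), and Dlat, of pyruvate dehydrogenase, rose by 0.84. Idh2, the NADP-dependent mitochondrial enzyme, fell (-0.60), a call lost on the 12 tumour libraries and without rolipram library 1 or 2 (adjusted p up to 0.0884 in limma). On the 12 tumour libraries the rises of these 3 lists were 12, 3 and 3, and without rolipram library 2 they were 17, 5 and 5. Without vehicle library 5, rolipram library 1 or rolipram library 5 the cycle list also had 5, and without rolipram library 3 the import list had 16.

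Among 21 regulators of mitochondrial genes, 2 rose (9.52%, near the 9.78% of all genes) and 4 fell (19%, against 7.32%), with a median of -0.12. Esrra, the estrogen-related receptor that drives oxidative genes, measured 59.4, 55.3, 25.4, 28.8 and 38.5 RPKM in rolipram libraries 1 to 5. With vehicle its lowest, median and highest values were 12, 21.6 and 24.7 RPKM, and the control median was 55.4 RPKM. The groups did not overlap, though rolipram library 3 was only just above the highest vehicle library. The Esrra difference was 0.91 (SE 0.19, adjusted p = 0.00373), with an exact permutation p of 0.00126. Perm1, a muscle regulator induced by the coactivator PGC-1 and estrogen-related receptors, rose to 50.4, 43.8, 29, 44.4 and 59.9 RPKM from a vehicle median of 19 RPKM, a difference of 1.29 (SE 0.24, adjusted p = 0.00176). Ppargc1a, which encodes PGC-1α, was not called (difference 0.29, 95% interval -0.16 to 0.73). The falls were Pprc1 (-0.32), Ppara (-0.62), Ppard (-0.36) and Prkaa2, the catalytic subunit of AMP-activated kinase (-0.45). The Prkaa2 call was lost on the 12 tumour libraries and without vehicle library 3, 4 or 5 or rolipram library 1 or 2 (adjusted p up to 0.104 in limma). That of Pprc1 was lost without rolipram library 2 (adjusted p up to 0.0535 in limma). The 4 falls became 1 on the 12 tumour libraries and 0 without rolipram library 2, 1 without vehicle library 3, 4 or 5 or rolipram library 1, and 2 without vehicle library 6.

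Glycolytic genes rose in 8 of 23 cases (34.8%, against 9.78% of all genes) and fell in none, with a list median of 0.41. Gapdh measured 2552, 2612, 2268, 2185 and 2268 RPKM in rolipram libraries 1 to 5 against 1037, 1378 and 1569 RPKM (lowest, median, highest) with vehicle. Its groups did not overlap, and the difference was 0.82 (SE 0.12, adjusted p = 0.000281). The muscle enolase Eno3 (1.13), the muscle phosphofructokinase Pfkm (0.84), Tpi1 (0.75) and the aldolase Aldoa (0.48) rose too. On the 12 tumour libraries 4 of the 23 were called. After quantile normalization, or without vehicle library 3 or 7, the glycolytic list had 1 fall. Of 28 fatty acid genes, 1 fell, lipoprotein lipase (Lpl, -1.10), and none rose (median 0.05), below the shares over all genes. The fatty acid rises were 4 with a replicate block, 2 without vehicle library 7 and 1 without vehicle library 2 or rolipram library 3 or 5. Its falls were 2 after quantile normalization. Of 22 insulin and AKT genes, Irs2, Tsc1 (-0.64) and Rictor (-0.36) fell (13.6%, against 7.32% of all genes), and none rose. No fall was called on the 12 tumour libraries or without vehicle library 3, rolipram library 1 or rolipram library 2. Without vehicle library 4, 5 or 6 or rolipram library 4 there was 1 fall.

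**Figure D5:**
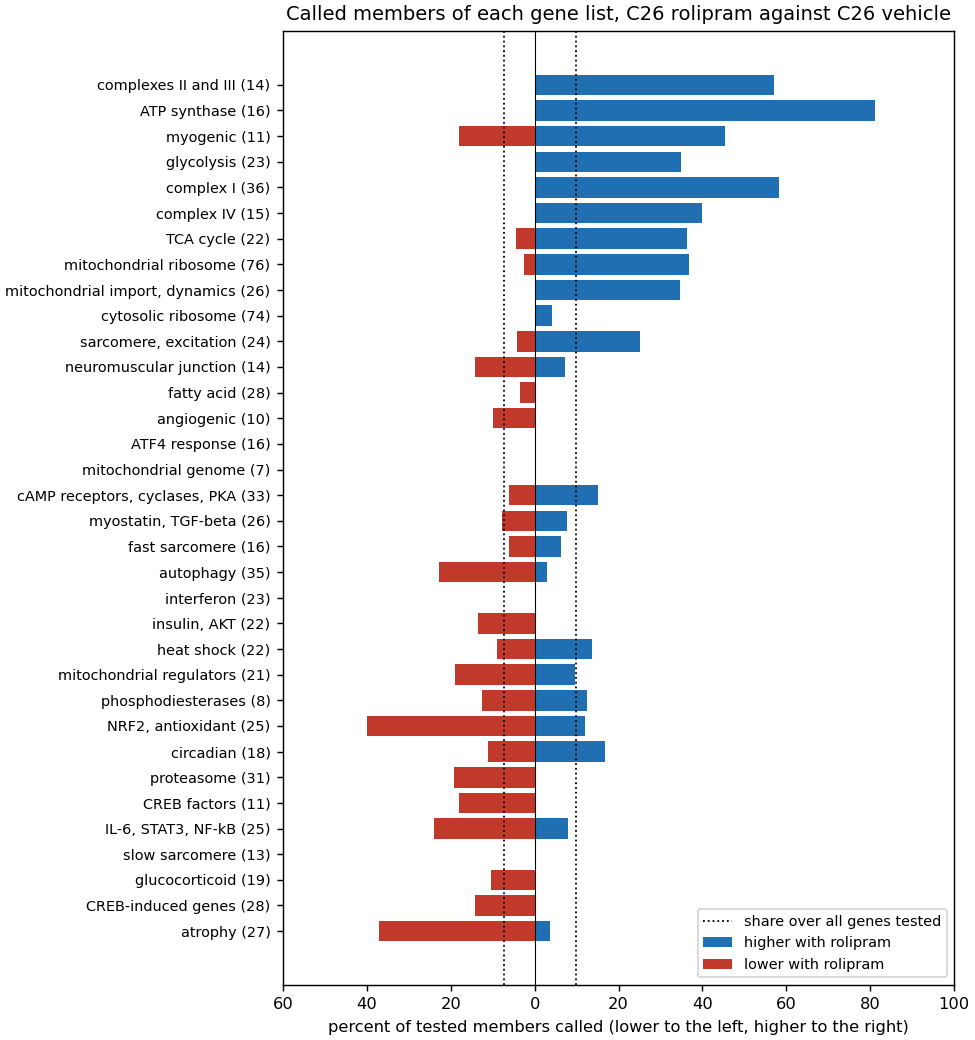
Share of the tested members of each pathway list that were called higher or lower with rolipram, in percent, with the shares over all genes (9.78% and 7.32%) drawn as lines. ATP synthase, at 13 of 16, has the highest share of rises, and the oxidant defence and atrophy lists (10 of 25 and 10 of 27) the highest shares of falls.

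Of 27 atrophy genes 10 fell with rolipram and 1 rose, against 7.32% and 9.78% of all genes, with a list median of -0.52. Trim63 measured 1106, 1199, 1635, 847 and 1069 RPKM in rolipram libraries 1 to 5. Vehicle libraries held 1346, 2543 and 3958 RPKM (lowest, median, highest) and controls 97.9, 111 and 164 RPKM. Rolipram library 3 lay inside the vehicle range and the other 4 below it, and every rolipram value was above every control. The Trim63 difference was -1.11 (SE 0.20, adjusted p = 0.0016), and its exact permutation p was 0.00505 (0.0227 adjusted over 18 genes). The level stayed 3.31 log2 units above controls with rolipram, beside 4.42 with vehicle.

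Fbxo32 measured 506, 343, 512, 290.3 and 366 RPKM with rolipram and 490.4, 688 and 1132 RPKM with vehicle. Rolipram libraries 1 and 3 reached the vehicle range, and the difference was -0.87 (SE 0.21, adjusted p = 0.0078). Zfand5, a proteasome activator, fell without overlap (-0.85), though the highest rolipram value, 55.14 RPKM, was next to the lowest vehicle value, 55.15 RPKM. Ctsl, the lysosomal protease cathepsin L, fell by 1.52, with rolipram library 5 inside the vehicle range. Foxo1 and Foxo3, transcription factors of the atrophy programme, fell by 0.87 and 0.56, and the Foxo1 call was lost on the 12 tumour libraries and without vehicle library 3 or 5 or rolipram library 1, 2 or 4 (adjusted p up to 0.0842 in limma). Stub1, a ligase and chaperone partner, rose (0.47), and 42.3% of its exon bases overlap a gene on the other strand. For Ctsl the overlap is 26.8%. The 10 falls were 5 on the 12 tumour libraries alone and 6 without rolipram library 2.

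Of 31 proteasome genes 6 fell (19.4%, against 7.32% of all genes) and none rose (against 9.78%), with a median of -0.23, and Psma1 (-0.49) and Psmc6 (-0.43) had the smallest p. This count was 2 on the 12 tumour libraries, 3 without vehicle library 5 or rolipram library 1, 17 without vehicle library 7, 16 after quantile normalization, 18 with array quality weights and 12 with a replicate block. Of 35 autophagy genes 8 fell (22.9%) and 1 rose (2.86%, median -0.09), with 4 falls on the 12 tumour libraries. Ulk1, the kinase that starts autophagy, measured 21, 18.4, 36.8, 21.8 and 14.1 RPKM in rolipram libraries 1 to 5 and 40.4, 53.1 and 82.2 RPKM (lowest, median, highest) with vehicle. It fell without overlap, by a log2 difference of -1.32 (SE 0.18, adjusted p = 0.000183). Gabarapl1 (-1.06), Map1lc3b (-0.40), both ATG8 proteins of the autophagosome, and the receptor Sqstm1 (-0.56) fell as well.

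Map1lc3a, another ATG8 protein, was higher. It measured 402, 426, 245, 319 and 416 RPKM with rolipram, 130.4, 149.6 and 184 RPKM with vehicle and 79.7, 112 and 129 RPKM in controls, each group of 7 as lowest, median and highest. All 5 rolipram values exceeded all 14 others, and the difference from vehicle was 1.22 (SE 0.14, adjusted p = 4.77e-05). Its difference from controls was 1.66 with rolipram and 0.44 with vehicle.

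Of 25 IL-6 and NF-κB response genes 6 fell (24%, against 7.32% of all genes) and 2 rose (8%, near the 9.78% of all genes), with a median of -0.28. Stat3, the transcription factor downstream of IL-6, measured 34.7, 29.5, 40.5, 36.9 and 32.2 RPKM in rolipram libraries 1 to 5 and 48.3, 51.6 and 58.9 RPKM with vehicle. The groups did not overlap, with a difference of -0.58 (SE 0.08, adjusted p = 0.000321) and an exact permutation p of 0.00126, and the control maximum was 12.5 RPKM. The IL-6 receptor Il6ra (-1.16), the interleukin-1 receptor Il1r1 (-0.58), Osmr (-0.38) and Rela (-0.43) fell. Nfkb2, which like Rela encodes an NF-κB subunit, rose (0.39, adjusted p = 0.0249 in limma). The Nfkb2 call was lost on the 12 tumour libraries, with array quality weights and without rolipram library 2 or 4 (adjusted p up to 0.102 in limma). Saa2, an acute-phase serum amyloid, was low in all libraries and fell to 0.75, 0.735, 0.33, 0.824 and 1.3 RPKM from a vehicle range of 1.92 to 12.4 RPKM (-1.59). The list had 4 falls and no rise on the 12 tumour libraries.

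Lcn2, an acute-phase lipocalin, was higher, at 2857, 2645, 429, 1250.4 and 3309 RPKM in rolipram libraries 1 to 5 and 132, 519 and 984 RPKM (lowest, median, highest) with vehicle. Rolipram library 3 lay within the vehicle range and the other 4 above it. The difference was 1.82 (SE 0.54, adjusted p = 0.0252), the exact permutation p was 0.0253 (0.053 adjusted over 18 genes), and the call was lost on the 12 tumour libraries, under 2 other settings and without vehicle library 6 or rolipram library 1, 2 or 5 (adjusted p up to 0.0751 in limma). Control libraries held at most 5.86 RPKM. Neutrophils also make Lcn2: the 3 of 10 neutrophil markers in the table summed to 4.43 to 85.2 RPKM with rolipram and 5.25 to 19.03 RPKM with vehicle, neither of the 2 tested was called, and their part in the result was not tested.

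Of 19 glucocorticoid-responsive genes 2 fell (10.5%, near the 7.32% of all genes) and none rose (median -0.38): Errfi1, a feedback inhibitor of EGF receptor signalling whose promoter is printed above (-0.81), and Klf15 (-0.93). Neither was called on the 12 tumour libraries alone. The Errfi1 call was lost without vehicle library 3 or 6 or rolipram library 2, 3 or 4 (adjusted p up to 0.0855 in limma), and that of Klf15 without any of 10 of the 12 single libraries. None of 23 interferon genes was called (median -0.10, smallest p for Irf9 at -0.33), and none of 16 ATF4 targets (median 0.00, smallest p for Atf4 at -0.34). Atf4 was called lower under 4 other settings and without vehicle library 7, with adjusted p down to 0.00562 in limma, and Irf9 under 3 other settings and without vehicle library 3 or rolipram library 3, down to 0.03. The ATF4 list had 2 falls without vehicle library 3 or 7 and 3 with array quality weights. At an unadjusted p below 0.05, 32.2% of all genes passed.

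Of 25 genes of oxidant defence 10 fell (40%, against 7.32% of all genes) and 3 rose (12%, near the 9.78% of all genes), with a median of -0.17. Hmox1, haem oxygenase 1 and a target of NRF2, measured 7.44, 8.04, 8.41, 7.57 and 8.65 RPKM in rolipram libraries 1 to 5. Vehicle values were 13.4, 24 and 29 RPKM (lowest, median, highest). The groups did not overlap and the difference was -1.27 (SE 0.15, adjusted p = 5.87e-05). Gclm, a subunit of the enzyme that starts glutathione synthesis (-0.92), Srxn1 (-0.62), Gsr (-0.49), catalase (Cat, -0.61) and the NRF2 gene itself, Nfe2l2 (-0.32), fell. Mitochondrial superoxide dismutase (Sod2, 0.45), Prdx2 (0.40) and the mitochondrial peroxiredoxin Prdx3 (0.21) rose. On the 12 tumour libraries 5 fell and none rose, and without rolipram library 2 it was 6 and 1, and without rolipram library 1 there was 1 rise.

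Of 16 fast sarcomere genes 1 rose and 1 fell, 6.25% each way and near the 9.78% and 7.32% of all genes (median -0.09), and none of 13 slow sarcomere genes was called (median -0.38, smallest p for Myl3 at -0.72). Without rolipram library 3 the fast list had 3 falls, and Myl3 was called lower (adjusted p = 0.0441 in limma). Mylk2, the kinase of the fast myosin light chain, measured 327, 355, 445, 369 and 355 RPKM with rolipram and 634, 819.5 and 1024 RPKM with vehicle. All 5 rolipram libraries lay below all 7 vehicle libraries and close to the controls (285 to 429 RPKM), with a difference of -1.15 (SE 0.13, adjusted p = 4.77e-05). Mybph rose (1.61), but 49.9% of its exon bases overlap a gene on the other strand. Its call was lost on the 12 tumour libraries and without rolipram library 4 (adjusted p up to 0.0605 in limma). Myh4, the fastest myosin heavy chain, was below the vehicle range in 4 rolipram libraries and above it in library 3 (5705 RPKM against 3874 to 4878), and was not called (-0.51, 95% interval -0.90 to -0.11). It was called lower without rolipram library 3 (-0.73, adjusted p = 0.00183 in limma) and with array quality weights (adjusted p = 0.00921).

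Of 24 genes of the Z-disc and of excitation and contraction coupling 6 rose (25%, against 9.78% of all genes). In this list 1 fell (4.17%, against 7.32% of all genes), and the median was 0.18. Ldb3, a Z-disc protein (1.05), Xirp2 (0.68), Jsrp1 (0.65) and desmin rose, and Jph1, which ties the T-tubule to the sarcoplasmic reticulum, fell (-0.47). The Jph1 call was lost on the 12 tumour libraries and without rolipram library 1, 2, 4 or 5 (adjusted p up to 0.0848 in limma). Of 11 myogenic genes 5 rose (45.5%, against 9.78% of all genes) and 2 fell (18.2%, against 7.32%), with a median of 0.44. Myog, the differentiation factor myogenin, measured 6.88, 7.22, 6.52, 10.4 and 14.8 RPKM with rolipram and 2.81, 3.65 and 6.25 RPKM with vehicle. The rolipram values were all higher, by 1.01 (SE 0.25, adjusted p = 0.0107) on the log2 scale. Myod1 (1.30), Myf6 (0.83), Mef2c (0.96) and the adhesion protein Cdh15 (0.44) rose, and Mef2a (-0.57) and Mef2d (-0.39) fell. The 5 rises became 1 on the 12 tumour libraries and 3 without rolipram library 1, 2 or 4. The Myod1 call was lost on the 12 tumour libraries and without rolipram library 4 (adjusted p up to 0.065 in limma).

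At the neuromuscular junction and in denervation, 1 of 14 genes rose, the acetylcholine receptor subunit Chrnb1 (0.41), and Musk and the deacetylase Hdac4 (-0.53) fell, shares of 7.14% and 14.3% against 9.78% and 7.32% of all genes. The Chrnb1 call was lost on the 12 tumour libraries (adjusted p = 0.0508 in limma), and the list had 2 rises without vehicle library 1, 4 or 7. In the myostatin and TGF-β list Acvr1b, an activin receptor (-1.18), and Tgfbr2 (-0.52) fell, and Tgfb2 (0.48) and Smad3 (0.75) rose, 2 of 26 each way (7.69%, near the shares of all genes). The falls were 1 without vehicle library 3 or rolipram library 2 or 4. The Hdac4 call was lost on the 12 tumour libraries and without vehicle library 3, 4 or 5 or rolipram library 1 or 2 (adjusted p up to 0.0916 in limma). The Smad3 call was lost on the 12 tumour libraries, with a pseudocount of 5, median-of-ratios scaling or quantile normalization. It was also lost without vehicle library 1, 3, 4, 5 or 6 or rolipram library 3, 4 or 5 (adjusted p up to 0.138 in limma). Of 18 clock genes 3 rose (16.7%) and 2 fell (11.1%). Rora, a nuclear receptor of the clock, fell without overlap, to 17.3, 9.98, 13.7, 10.7 and 17 RPKM from 17.9, 28.7 and 60.8 RPKM (lowest, median, highest) with vehicle. Its difference was -1.05 (SE 0.24, adjusted p = 0.00692). Cry2 fell (-0.90), and Cry1 (0.47), Dbp (1.17) and Bhlhe41 (0.44) rose. The Dbp call was lost on the 12 tumour libraries and without rolipram library 1 or 2 (adjusted p up to 0.0615 in limma). The Cry2 call was lost on the 12 tumour libraries and without vehicle library 3, 4 or 5 or rolipram library 2 or 4, and the list had 4 falls without rolipram library 3 or 5. The 3 clock rises became 1 on the 12 tumour libraries or without rolipram library 1 or 2. The time of day of collection is not stated.

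Of 22 chaperone genes 3 rose (13.6%, against 9.78% of all genes), the small heat shock proteins Hspb2 (0.62), Hspb3 (1.17) and Hspb6 (0.73), and 2 fell (9.09%, against 7.32%), Hspa2 (-0.41) and Bag3 (-0.42), with 1 rise on the 12 tumour libraries and 1 fall without rolipram library 2. Of 74 cytosolic ribosome genes 3 rose (4.05%), of which Rpl36 by 0.49 and Rpl29 by 0.33. The list median was 0.23 and 73 of 74 were above 0. The count was 0 on the 12 tumour libraries, 37 without rolipram library 3, and between 0 and 7 without vehicle library 1, 4 or 7 or rolipram library 1, 2 or 5. Of 10 hypoxia and angiogenic genes 1 fell, Hif1a (-0.38), a share of 10% and near the 7.32% of all genes. The Hif1a call was lost on the 12 tumour libraries, with array quality weights and without rolipram library 2 (adjusted p up to 0.0736 in limma).

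Markers of the other cells of whole muscle were mostly not called. The counts are read against the 9.78% of all genes that rose and the 7.32% that fell. With 1 to 15 markers tested per cell type, a single call does not stand out from these shares. None of 9 macrophage, 11 endothelial, 15 fibroblast, 8 smooth muscle and pericyte, 7 Schwann or 6 adipocyte markers tested passed. In that order the list medians were -0.28, -0.10, -0.26, -0.07, 0.14 and -0.54, with 1, 3, 3, 3, 6 and 0 markers above 0. In bulk muscle, fewer cells of a type and less RNA per cell cannot be told apart. Summed macrophage markers were 53.7 to 154 RPKM with rolipram, 77.4 to 222 RPKM with vehicle and 28.3 to 127 RPKM in controls. Summed fibroblast markers were 196 to 269 RPKM with rolipram, 183 to 587 RPKM with vehicle and 274 to 650 RPKM in controls. Of 5 erythroid markers Alas2, the enzyme of haem synthesis in red cell precursors, fell (-0.73), with sums of 202 to 551 RPKM with rolipram and 310 to 1012 RPKM with vehicle. The Alas2 call was lost under 6 other settings, the 12 tumour libraries alone among them, and without any of 10 of the 12 single libraries, and 3 erythroid markers fell without vehicle library 4. Of 6 tendon markers the transcription factor Scx rose (1.06), with sums of 24.3 to 53.9 RPKM and 36.2 to 135 RPKM. Satellite cell markers summed to 16.3 to 19.1 RPKM with rolipram and 8.5 to 16.9 RPKM with vehicle, with Cdh15 called of the 2 tested, a call lost on the 12 tumour libraries. A single T cell marker and a single B cell marker were in the table. The B cell marker reached 51.5 RPKM in 1 vehicle library, against a vehicle median of 0.648 RPKM and 24.9 to 63.6 RPKM in controls. The part of these cell types in the results above was not tested.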

How the data were processed

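Messenger RNA of mouse gastrocnemius was measured by polyA-selected RNA sequencing in 5 C26 rolipram, 7 C26 vehicle and 7 control libraries, grouped by their labels. Per the submitters' processing notes, STAR 2.5.3a, featureCounts 1.6.4 and mm10 were used. The annotation, strand setting, gene filter and the tool behind the normalised values are not given in the sources used here. Deposited values are RPKM made by the authors, 13067 genes in 19 columns, with no value of 0. In 40 genes the lowest value was shared by several libraries at what a prior of 0.25 read would give, and from the steps above it library sizes of 16.57 to 45.51 M reads were estimated (whole reads within 0.05 read). These sizes limit the precision of low genes and are estimates.

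The 11141 genes with 1 RPKM or more in at least 5 libraries were taken to log2(RPKM + 1), a scale that understates the change of low genes. A linear model with 3 group means over all 19 libraries was fitted in limma 3.58.1 (R 4.3.3) with trended, robust variance moderation and no covariate. Tests were two-sided, with Benjamini-Hochberg adjustment over all genes and a threshold of 0.05. No count model was fitted to these normalised values. The panel of 18 genes was also tested by exact permutation over 792 assignments of the 12 tumour libraries. On simulated data of 11141 genes for C26 rolipram against C26 vehicle, with 66 or 67 genes changed per size, 64.2% of log2 changes of 0.5, 98.5% of 1 and 98.5% of 2 were recovered, and 8 unchanged genes were called. Changes were planted only in genes with a mean log2 level above 2. The noise was normal and independent, with the same SD for a gene in all groups. Unequal spread between groups and effects shared within a library were not simulated, so these rates may not hold for the real libraries or for low genes.

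Named genes were the panel, the 12 largest rises and 12 largest falls among called, non-overlapping genes with a higher group mean of at least 5 RPKM, predicted genes left out, and for each of 34 pathway lists the 2 members of smallest p in the majority direction and the 1 in the other. Further members of a list were named where its called members were counted, and 15 marker lists were counted. The members and lists were chosen with earlier results of these data known. Gene models and overlaps were read from GENCODE on GRCm38, and promoters from RefSeq. Alternatives were another pseudocount, filter or scaling, the 12 tumour libraries alone, another variance model, array quality weights, a replicate block and each tumour library left out.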

Additional observations from a re-analysis of the deposited data

Results flagged for a closer look

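In 11 of 214 groups of libraries examined over the named genes, 1 library stood apart from the rest of its group by Dixon's criterion at the 95% level, and chance alone gives about 1 group in 20. Vehicle library 3 was low for Esrra, at 12 RPKM against 19.9 to 24.7 RPKM in the others, and for Slc16a3, at 13.4 RPKM against 32.1 to 54.1 RPKM. Rolipram library 3 was low for Hr, at 32.6 RPKM against 44.6 to 49.8 RPKM, and for Chrnb1, at 40.5 RPKM against 48.1 to 50.6 RPKM. Vehicle library 7 was low for Psma1, at 90.7 RPKM against 119 to 144 RPKM, and for Atf4, at 129 RPKM against 191 to 239 RPKM, and high for Hif1a, at 8.45 RPKM against 5.38 to 6 RPKM. Vehicle library 1 was low for Adcy9, at 9.69 RPKM against 13.1 to 16.2 RPKM, and for Cry1, at 4.4 RPKM against 5.14 to 5.34 RPKM. Rolipram library 5 was high for Cry1, at 12 RPKM against 5.93 to 7.09 RPKM, and rolipram library 1 was high for Hspa2, at 6.6 RPKM against 4.97 to 5.1 RPKM.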

How the results depend on the processing

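The numbers of genes called higher and lower (1090 and 816) became 467 and 300 on the 12 tumour libraries alone, 759 of these 767 being called on all 19, and 1608 and 1379 with array quality weights. The cause of the latter was not tested. Leaving out 1 library gave 665 to 1448 rises and 435 to 1072 falls. Without rolipram library 5 the falls outnumbered the rises, 954 against 910. No gene was called in opposite directions under any alternative. With a replicate block the counts were 1246 and 852, but the numbers share no stated origin. Each library was taken as its deviations from its group mean, gene by gene. The correlations of these deviations between same-numbered rolipram and vehicle libraries ran from -0.36 to 0.39. No rolipram library correlated best with its own number on this measure. Other pseudocounts, filters, scalings and the variance model kept both counts within 1.5 times. Of 93 called named genes, 66 kept their call under all alternatives, 21 lost it without a single library and 26 under another setting. The sign of Creb1, not called (-0.06), became positive with array quality weights (0.016) and without rolipram library 2 (0.0051), in a range of -0.11 to 0.0051 over single libraries left out. Low genes near 1 RPKM are limited by depth and the pseudocount.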

Other observations

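Some further differences lay outside the lists and the naming rule, and the following genes were chosen after their values were seen. Myom2, an M-band protein of the sarcomere, was 582 ± 110.2 RPKM with rolipram (SD, n = 5) and 274 ± 34.6 RPKM with vehicle (SD, n = 7), a log2 difference of 1.07 (SE 0.11, adjusted p = 4e-05) in limma, and the 2 groups did not overlap. Klhl41, a sarcomere-associated protein, was higher by 0.63 and Synpo2l by 1.10, also without overlap. Tspo, a protein of the outer mitochondrial membrane, was 76.8 ± 8.42 RPKM with rolipram (SD, n = 5) and 38.9 ± 10.4 RPKM with vehicle (SD, n = 7), a difference of 1.00, with no overlap. Mylk4, a myosin light chain kinase, had a difference of 2.65, with means of 82.3 RPKM with rolipram, 15.4 RPKM with vehicle and 358 RPKM in controls. Agt, angiotensinogen, had a difference of 2.40 (SE 0.61), with a control mean of 2.94 RPKM. Despite their size, neither Mylk4 nor Agt is among the largest called rises without overlap named above.

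Lower with rolipram were Pir (-0.98) and Mafg (-0.81), the latter a partner of NRF2 in DNA binding, and the proteasome activator Psme4 (-0.82). Basigin (Bsg), the chaperone of lactate transporters, rose by 0.80, beside the rise of Slc16a3 (1.37). No explanation was examined for any of these differences.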
